A study of Mus musculus with 37 samples.

Results

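The late 1-cell embryo without maternal Bap1 was examined in 5 of the 37 RNA-seq libraries of a mouse study, namely the 2 late 1-cell control libraries (CTR) and the 3 late 1-cell maternal knockout libraries (matKO), taken by their column names from a table of 26 total RNA libraries. Controls came from eggs of Bap1flox/flox females, and knockouts from eggs of Gdf9-iCre, Bap1flox/flox females, in which the Gdf9 promoter, active in oocytes, drives the recombinase. Both kinds of egg were fertilized with B6 wild type sperm and the embryos were cultured in KSOM, a medium for preimplantation embryos. The floxed allele was therefore common to both groups, the recombinase transgene was in the knockout mothers only, and the intact Bap1 copy of a matKO embryo came from the sperm. Maternal age and the number of embryos pooled per library are not given in the sources used here, nor is it said whether the replicates came from separate females or cultures, so the p-values measure the spread between these libraries. RNA was made into libraries with the SMART-Seq Stranded kit, which primes total RNA at random positions. The unit is FPKM, a fragment count divided by gene length and library total, and a lower FPKM in such bulk libraries cannot tell fewer embryos with a transcript from less transcript per embryo.

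BAP1 is the catalytic subunit of the PR-DUB complex, in which an ASXL protein activates it to remove ubiquitin from lysine 119 of histone H2A (H2AK119ub1), the mark that Polycomb repressive complex 1 (PRC1) writes. The late 1-cell embryo holds separate maternal and paternal pronuclei and lives almost wholly on mRNA and protein stored in the egg. Between fertilization and the 2-cell stage the stored mRNAs are degraded in stages, and a minor, low-level wave of transcription precedes the major activation of the embryonic genome.

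The matKO libraries were slightly below the CTR libraries in their totals. The summed FPKM was 322933 and 324668 in CTR and 310677 to 317521 in matKO, and 10665 and 10708 genes reached 1 FPKM in CTR and 10353 to 10500 in matKO. The groups did not overlap in either measure, whose part in the results was not tested, and the number of reads is not known from these values. Pearson's r of log2(FPKM + 1) across the genes tested was 0.984 to 0.989 within groups and 0.962 to 0.967 between them, a description over genes that are not independent. The 14 oocyte and egg markers summed to 3413 and 3382 FPKM in CTR and to 4187, 3653 and 3437 in matKO, with none at 0. The 10 markers of the 2-cell embryo summed to 20.7 and 21.5 FPKM in CTR and 17.0 to 22.3 in matKO, with Tdpoz4 at 0 in all 5 libraries. The 20 cumulus and granulosa cell markers summed to 6.25 and 7.98 FPKM in CTR and 2.50 to 3.38 in matKO, with Amh, Amhr2, Areg, Ereg, Inha and Lhcgr at 0 in all 5. Most of that sum was Cyp19a1, at 4.49 and 6.06 FPKM in CTR and 1.53, 1.47 and 2.16 in matKO, and its part in the results below was not tested. The 14 sperm and spermatid markers summed to 4.14 and 5.08 FPKM in CTR and 2.79 to 5.74 in matKO, with Akap4, Plcz1, Prm1, Spem1, Tnp1 and Tnp2 at 0 in all 5. Mitochondrial transcripts took a larger share of the FPKM in CTR, 8.54% and 8.85%, than in matKO, 5.11%, 5.53% and 6.20%.

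Bap1 itself was low in every knockout library. It stood at 24.7 and 25.2 FPKM in CTR and at 4.21, 5.51 and 5.68 FPKM in matKO, so the groups did not overlap, as was the case for 49.6% of all genes tested. The mean fell 4.86-fold, a difference (matKO minus CTR) of -2.09 on the log2(FPKM + 1) scale (SE 0.13, limma adjusted p = 0.000413). Bap1 lies on chromosome 14 at 31251450 to 31259944 of GRCm38, plus strand. The values are for the whole gene, so transcript parts outside the deleted exons still count toward them.

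Decreases in the knockout embryos were larger than increases. Of 11096 genes tested at this stage alone, 690 were higher in matKO, 6.22% of those tested, and 967 were lower, 8.71%, at an adjusted p under 0.05 by limma with Benjamini-Hochberg adjustment, 14.9% in all. Among them 347 of the 967 fell by at least 1 log2 unit (35.9%) and 49 by at least 2, while 40 of the 690 rose by at least 1 (5.80%) and 2 by at least 2. Those 2 were Cdc5l and 4933434E20Rik, the second listed at 0 in both CTR libraries and at 4.54, 6.62 and 5.10 FPKM in matKO and named here after its values were seen. Genes that rose had a median CTR level of 13.3 FPKM and genes that fell one of 6.84 FPKM. The median difference over all genes tested was 0.03. In all 690 and all 967 genes called the groups were apart, so that trait adds nothing to a call. Which direction held more genes depended on the filter: of 6558 genes left when the mean had to reach 5 FPKM, 552 were higher and 450 lower, although 17 of those rose and 90 fell by at least 1 log2 unit. With 2 control libraries the counts rest on each one: without CTR replicate 1 they were 61 higher and 177 lower, without CTR replicate 2 they were 70 and 181, and without matKO replicate 2 they were 304 and 614.

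**Figure D1:**
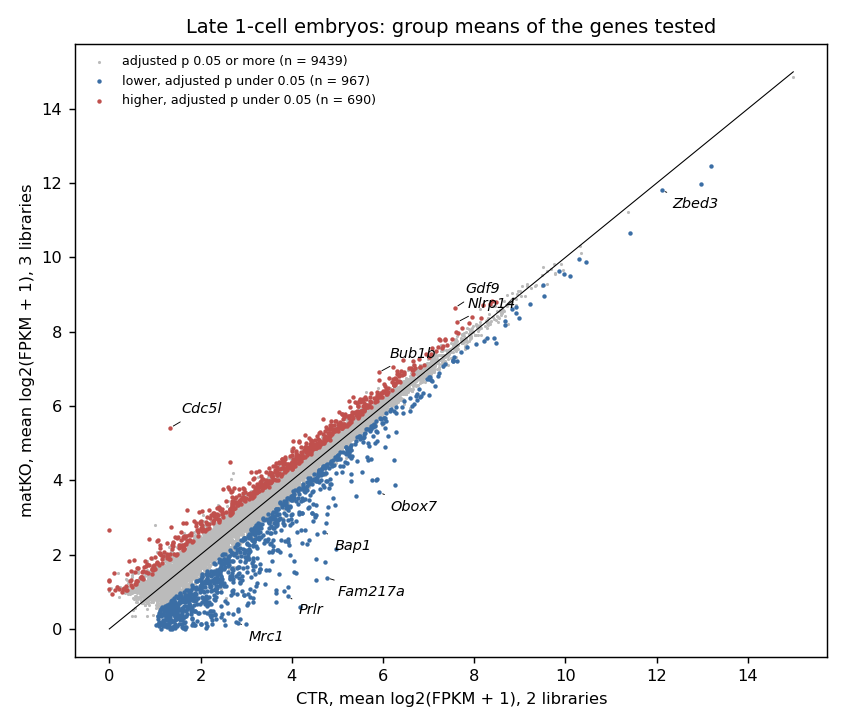
Mean log2(FPKM + 1) of each gene tested over the 3 matKO libraries (vertical axis) against that over the 2 CTR libraries (horizontal axis), with the diagonal drawn and with genes higher (690) and lower (967) in matKO in colour. The lower genes reach farther from the diagonal than the higher ones, apart from Cdc5l, which stands alone far above it.

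The genes that fell most were close to silent in the knockout embryos. The largest decrease named was that of Fam217a (chromosome 13, 34909960 to 34924310, minus strand), at 25.9 and 26.6 FPKM in CTR and 1.43, 1.08 and 2.48 in matKO, a difference of -3.39 (SE 0.21, adjusted p = 0.000413). Prlr, the prolactin receptor, stood at 13.9 and 14.2 FPKM in CTR and 1.49, 0.583 and 0.568 in matKO (-3.04, SE 0.22, adjusted p = 0.000542). Nckap5 stood at 10.5 and 12.9 FPKM against 0.626, 0.711 and 0.612 (-2.94, adjusted p = 0.000413). In each of these genes the highest matKO library was far below the lowest CTR library, where the rule for naming them required groups apart. Entpd1, the ectonucleotidase CD39, was at 8.02 and 6.06 FPKM in CTR and 0.170, 0.0660 and 0.0320 in matKO, a mean 78.8-fold lower. Mrc1, the mannose receptor, was at 7.02 and 5.15 FPKM against 0.150, 0.0945 and 0.136, a mean 47.9-fold lower. The other genes named by the same rule fell by 2.45 to 2.82 log2 units. They were Pdzph1, Lpl (lipoprotein lipase), Cd200 (a membrane glycoprotein that signals to leukocytes), Il23r (the interleukin 23 receptor), Lcp2 (a signalling adaptor of T cells), Cntn6 (a contactin of neuronal surfaces), Akr1b8 (an aldo-keto reductase) and a pair of Ensembl genes both named Zfp813-ps, which share 32.2% and 21.1% of their 50-base words with other genes and are therefore uncertain. All 14 kept the call without any one matKO library, and the 8 of them that passed the level filter with either CTR library left out kept it too.

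These decreases were also found before fertilization. The difference for Fam217a was -3.62 in fully grown oocytes (FGO), -3.81 in eggs at metaphase II (MII) and -3.28 in early 2-cell embryos, and for Prlr it was -2.85, -2.64 and -3.11. Among the 14 the smallest difference at the next stage was that of Akr1b8, at -2.59 in late 1-cell and -0.82 in early 2-cell embryos, where its control level had itself dropped from 9.94 and 13.4 FPKM to between 2.14 and 3.02. Of the 967 genes lower at late 1-cell, 554 were also lower in FGO, which is 57.3% of them and 68.5% of the 809 lower there. In MII 577 were also lower, 59.7% of the 967 and 64.8% of the 890 lower in MII, and in early 2-cell embryos 329, 34.02% of the 967 and 47.5% of the 692 lower there. No gene lower at late 1-cell was higher at any of these 3 stages, which share no library with it. The background was 7% of genes lower in FGO, 7.84% in MII and 5.87% in early 2-cell embryos.

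Genes that fell had fewer CpG dinucleotides at their start, in the median, than all genes tested. The promoters of 3 of them are printed here beside those of 2 genes that rose, Cdc5l and P4hb, as single examples of a sparse and a dense window: 250 bases before and 50 after the start, 5' to 3' on the gene's strand, from RefSeq on GRCm38.p6, with each CpG in capitals. Pdzph1 is at chr17:58991326-58991625, minus strand, with 3 CpG; Mrc1 at chr2:14229164-14229463, plus strand, with 3; Obox7 at chr7:14659458-14659757, plus strand, with 1. Cdc5l is at chr17:45433658-45433957, minus strand, with 26, and P4hb at chr11:120573204-120573503, minus strand, with 31. The 3 sparse examples are under the lower quartile of the protein-coding genes that fell (8 CpG), so they are not typical of them. Windows not printed for Prlr, Nckap5 and Entpd1, which also fell, hold 8, 12 and 23 CpG. Those of Bub1b and Rps21, which rose, hold 15 and 21, fewer than the 2 dense examples.
Pdzph1: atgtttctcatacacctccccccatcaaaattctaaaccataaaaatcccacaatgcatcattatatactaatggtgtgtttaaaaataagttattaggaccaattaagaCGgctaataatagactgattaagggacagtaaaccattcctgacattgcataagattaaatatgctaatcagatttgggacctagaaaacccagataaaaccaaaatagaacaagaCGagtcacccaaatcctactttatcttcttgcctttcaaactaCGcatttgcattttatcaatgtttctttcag
Mrc1: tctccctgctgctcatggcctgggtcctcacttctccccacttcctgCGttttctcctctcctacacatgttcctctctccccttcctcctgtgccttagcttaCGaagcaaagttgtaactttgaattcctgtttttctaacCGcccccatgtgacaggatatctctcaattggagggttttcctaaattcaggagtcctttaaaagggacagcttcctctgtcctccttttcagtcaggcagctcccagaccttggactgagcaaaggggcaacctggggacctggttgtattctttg
Obox7: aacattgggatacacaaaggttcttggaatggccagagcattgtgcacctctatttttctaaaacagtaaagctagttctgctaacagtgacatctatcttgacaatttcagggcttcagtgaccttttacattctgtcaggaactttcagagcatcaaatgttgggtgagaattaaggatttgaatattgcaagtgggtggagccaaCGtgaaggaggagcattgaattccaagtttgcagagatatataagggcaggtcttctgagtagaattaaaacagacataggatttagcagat
Cdc5l: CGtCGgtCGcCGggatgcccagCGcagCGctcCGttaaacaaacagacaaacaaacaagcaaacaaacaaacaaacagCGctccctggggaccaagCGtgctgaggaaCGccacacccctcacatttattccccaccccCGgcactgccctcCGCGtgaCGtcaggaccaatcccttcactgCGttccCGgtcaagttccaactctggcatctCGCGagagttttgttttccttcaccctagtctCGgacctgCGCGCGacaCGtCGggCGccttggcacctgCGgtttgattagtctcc
P4hb: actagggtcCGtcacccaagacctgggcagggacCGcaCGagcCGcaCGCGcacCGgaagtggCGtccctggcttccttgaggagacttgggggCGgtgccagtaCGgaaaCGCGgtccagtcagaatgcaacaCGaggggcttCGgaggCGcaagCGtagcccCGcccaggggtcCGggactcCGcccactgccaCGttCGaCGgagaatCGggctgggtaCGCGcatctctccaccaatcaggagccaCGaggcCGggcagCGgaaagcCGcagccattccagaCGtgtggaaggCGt

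Counted over protein-coding genes, taking for each gene its annotated window with the most CpG, the median was 16 CpG for the genes that fell, 12 for those that fell by at least 1 log2 unit and 23 for all genes tested. A window was at hand for 81.3%, 80.3% and 81.2% of them. For the genes that rose it was at hand for 79.0%, under the minimum of 80% set for such a comparison, so none was made. The median of those with a window was 23, the value for all genes tested. The share of genes lower in matKO was 22.8% of the 448 genes with 0 to 4 CpG, 16.9% of those with 5 to 9, 10.4% of those with 10 to 19, 5.24% of those with 20 to 29 and 5.22% of those with 30 to 67. Genes with few CpG were also less abundant, with a median CTR level of 5.26 FPKM in the first bin and 11.8 in the last. Within the lowest, middle and highest group of genes when ranked by CTR level into 3 equal groups, the share lower was 22.9%, 23.1% and 22.3% with 0 to 4 CpG and 6.14%, 5.97% and 3.94% with 30 to 67. Of all 32851 windows in the promoter table, 38.0% hold 0 to 4 CpG. A count of letters describes these windows and says nothing of any factor bound there.

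Among the genes that rose, Cdc5l stood far apart. Cdc5l, a core protein of the PRP19 spliceosome complex, was at 1.18 and 1.91 FPKM in CTR and at 37.0, 44.4 and 43.7 FPKM in matKO, a mean 26.9-fold higher (difference 4.08, SE 0.15, adjusted p = 0.000133). Its difference was 3.24 in FGO, 3.21 in MII and 3.12 in early 2-cell embryos. The gene lies on chromosome 17 at 45391884 to 45433737, minus strand, shares 36.6% of its 50-base words with 13 other genes and overlaps B230354K17Rik on the opposite strand, and whether the counting used the strand is not given in the sources used here. Of 15 listed members of the PRP19 complex 14 were tested and 3 rose: Cdc5l, Hspa8 by 0.65 and Prpf8 by 0.58. None fell. Over all genes 6.22% were higher.

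The remaining genes named for the largest increases rose by 1.02 to 1.85 log2 units. Slc45a4, a solute carrier, was at 11.6 and 2.09 FPKM in CTR and 19.7, 24.6 and 20.4 in matKO (1.85, SE 0.50, adjusted p = 0.0486), with the CTR libraries far apart. Grn, progranulin, was at 1.86 and 2.74 FPKM against 11.2, 9.55 and 5.15 (1.50), and Gpx1, a glutathione peroxidase, at 1.79 and 1.35 FPKM against 7.11, 4.62 and 5.75 (1.40, adjusted p = 0.00427). P4hb, the protein disulfide isomerase of the endoplasmic reticulum, was at 16.6 and 14.2 FPKM against 39.6, 33.6 and 24.7 (1.02, adjusted p = 0.0125). In all of these the lowest matKO library was above the highest CTR library, as the rule for naming them required. The rest were Gdf9, the histone genes H4c6, H4c2 and H4c4, the ribosomal protein genes Rpl39 and Rps21, Cdk5r2 (an activator of the kinase CDK5), Snord118 (the U8 small nucleolar RNA) and mt-Td (a mitochondrial tRNA). Of the 14, 9 lost the call without CTR replicate 1 (adjusted p up to 0.241), 8 without CTR replicate 2 (up to 0.160), 3 without matKO replicate 2, and 2 each without matKO replicate 1 and matKO replicate 3.

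Some of the increases were found in the oocyte too. Of the 690 genes higher at late 1-cell, 82 were also higher in FGO, 11.9% of them and 52.9% of the 155 higher there, against a background of 1.34% higher in FGO. In MII 157 were also higher (22.8% of the 690, 33.1% of the 474, background 4.17%) and in early 2-cell embryos 147 (21.3% of the 690, 29.3% of the 501, background 4.25%). Genes that were lower instead numbered 1 in FGO, 1 in MII and 8 in early 2-cell embryos. Fewer increases than decreases were called at each of those stages, and no test compared the shares of increases and decreases found again.

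**Figure D2:**
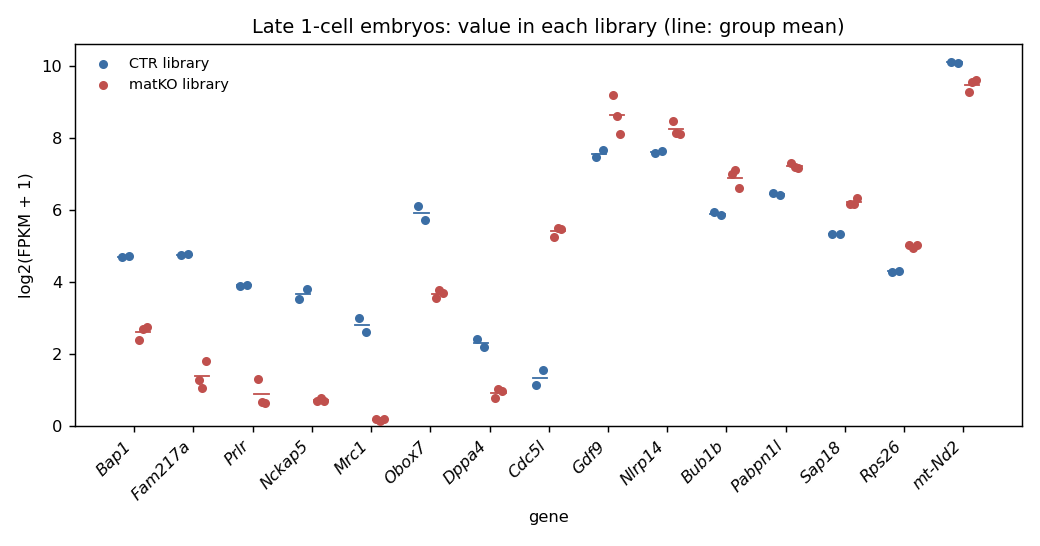
Value of 15 genes in each late 1-cell library as log2(FPKM + 1), with 2 CTR and 3 matKO points per gene and a line at each group mean. The groups are apart in every gene shown, as in every gene called, and the matKO libraries of Gdf9 spread from 277 to 586 FPKM.

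Beside Bap1, 1 gene of its complex passed the test. Of 14 genes of PR-DUB and its partners all were tested, and Bap1 and Asxl3 fell while 12 did not pass the test (median difference -0.05). That is 14.3% of the list, Bap1 included, near the 14.9% called over all genes. Asxl1, the main partner that activates BAP1, was at 60.3 and 63.2 FPKM in CTR and 67.1, 66.5 and 65.7 in matKO, a difference of 0.10 that did not pass. Asxl3 was at 1.79 and 2.01 FPKM against 0.544, 0.751 and 0.627 (-0.82, SE 0.15, adjusted p = 0.0145). Differences that did not pass were -0.24 for Asxl2, 0.04 and 0.01 for the forkhead partners Foxk1 and Foxk2, 0.21 for Hcfc1 (host cell factor), -0.05 for Ogt (the O-GlcNAc transferase) and -0.19 for Kdm1b (an H3K4 demethylase of oocytes). On the opposing side, 1 of 23 PRC1 genes changed: Rnf2, the ubiquitin ligase that writes the mark, at 56.7 and 53.2 FPKM in CTR and 46.7, 44.9 and 43.3 in matKO (-0.28, adjusted p = 0.0354). Of 13 genes of PRC2, which methylates H3K27, Phf19 fell by 0.66 and no other passed, and of 14 other H2A and H2B deubiquitinases Brcc3 fell by 0.46 and Usp46 by 0.24. These are 4.35%, 7.69% and 14.3% of the 3 lists, none of them above the 14.9% called over all genes. The small calls of Rnf2, Phf19, Brcc3 and Usp46 were lost with either CTR library left out and without matKO replicate 2, with adjusted p up to 0.303.

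Among regulators of the first transcription, Obox7 and Dppa4 showed large decreases. Of 25 tested activators of the embryonic genome 5 fell (20%) and 2 rose (8%), beside 8.71% lower and 6.22% higher over all genes, with a median of -0.15 beside 0.03. Obox7, an oocyte homeobox gene, was at 67.7 and 52.4 FPKM in CTR and 10.8, 12.7 and 11.9 in matKO, with no overlap (-2.25, SE 0.12, adjusted p = 0.000413). Its difference was -1.73 in FGO, -1.92 in MII and -2.00 in early 2-cell embryos, and 21.1% of its 50-base words occur in other genes, as is common among the OBOX copies on chromosome 7. Dppa4, a chromatin protein that acts upstream of Dux, was at 4.29 and 3.53 FPKM against 0.705, 1.03 and 0.972 (-1.37, adjusted p = 0.00269), and 31.3% of its words are shared. Its partner Dppa2 fell by 0.39, the factor Klf17 by 0.37 and Obox1 by 0.26. Nfya and Nfyb, subunits of the CCAAT-binding factor NF-Y, rose by 0.44 and 0.48, and neither passed with either CTR library left out or without matKO replicate 2. The count of decreases was 2 with either CTR library left out and 3 without matKO replicate 2.

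Gene families of the 2-cell stage and of minor activation were mostly silent. Of 63 listed, 20 passed the level filter and 14 were at 0 in all 5 libraries. None of the 20 rose and 5 fell (25%, beside 8.71% of all genes), namely Obox7, Zscan4-ps1 by 1.16 (48.4% of its words shared), Zfp809 by 0.77, Sp110 by 0.41 and Obox1. Obox7 and Obox1 were counted among the activators as well. Before fertilization 4 of 17 tested members were lower in FGO and 3 of 18 in MII, with medians of -0.15 and -0.14. Over all genes 7% and 7.84% were lower there. At late 1-cell the median was -0.27, and the differences above 0 were those of Zscan4c (0.43) and Zscan4d (0.40), which did not pass. With either CTR library left out 2 of these genes passed as lower, and 3 without matKO replicate 2.

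Developmental transcription factors, the classic Polycomb targets, were largely off as well. Of 207 listed by family name 23 passed the level filter, and 6 fell (26.1%) while 2 rose (8.70%), beside 8.71% lower and 6.22% higher over all genes. Gata3, a GATA factor of trophoblast, was at 3.12 and 2.51 FPKM in CTR and 0.184, 0.104 and 0.205 in matKO, a mean 17.1-fold lower (-1.71, SE 0.16, adjusted p = 0.0011). Hoxa7, a homeobox gene of the HoxA cluster, was at 14.6 and 15.5 FPKM against 7.92, 7.82 and 6.85 (-0.91, adjusted p = 0.00254), with Hoxaas3 overlapping it on the opposite strand. The groups were fully apart in both genes, as in every gene called. Foxn2, Meis2, Pou4f1 and Tbx19 also fell, and Sox15 and Sox8 rose by 0.64 and 0.40, losing the call with any 1 of the 5 libraries left out. The median over the 23 was -0.01.

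Many stored maternal mRNAs that controls clear by the early 2-cell stage were higher in the knockout. When genes were classed by the change in control embryos from MII to early 2-cell (at least 2 log2 units, adjusted p under 0.05), a class added after the data had been seen, 681 of the genes cleared over that interval were tested at late 1-cell. Of these, 190 were higher in matKO (27.9%) and 11 lower (1.62%), and 587 had a difference above 0, with a median of 0.30. All genes tested had 6.22% higher, 8.71% lower and a median of 0.03. In FGO 15 of 679 genes of the same class were higher (2.21%) and 22 lower (3.24%), with a median of 0.04, and the difference between FGO and late 1-cell was not tested. Leaving out the ribosomal protein genes gave 180 of 668 higher and a median of 0.30. The count of increases was 20 without CTR replicate 1, 19 without CTR replicate 2 and 83 without matKO replicate 2, with medians of 0.30, 0.29 and 0.30. The MII controls define the class, so no MII effect of it is given.

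Among these genes were several well-known products of the oocyte. Gdf9, a growth factor that oocytes secrete toward the follicle, was at 178 and 202 FPKM in CTR and 586, 392 and 277 in matKO (1.07, SE 0.27, adjusted p = 0.0382). In control material it was at 1077 to 1096 FPKM in FGO, 904 to 986 in MII and 79.6 to 101 in early 2-cell embryos, and the knockout differences at the first 2 of these stages were 0.06 and 0.04. Bub1b, the checkpoint kinase BUBR1, was at 60.3 and 57.7 FPKM against 127, 137 and 96.3 (1.00, SE 0.14, adjusted p = 0.0050) and differed by -0.04 in MII. The groups were apart in both genes, as in every gene called, although the matKO libraries of Gdf9 spread more than 2-fold. Plat, tissue plasminogen activator, stored in the oocyte as a dormant mRNA and named here after its values were seen, was at 73.4 and 74.4 FPKM against 151, 143 and 107 (0.83, adjusted p = 0.00945). Without CTR replicate 1 or CTR replicate 2 neither Gdf9 nor Bub1b passed, and without matKO replicate 2 Gdf9 did not, with adjusted p up to 0.192.

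**Figure D3:**
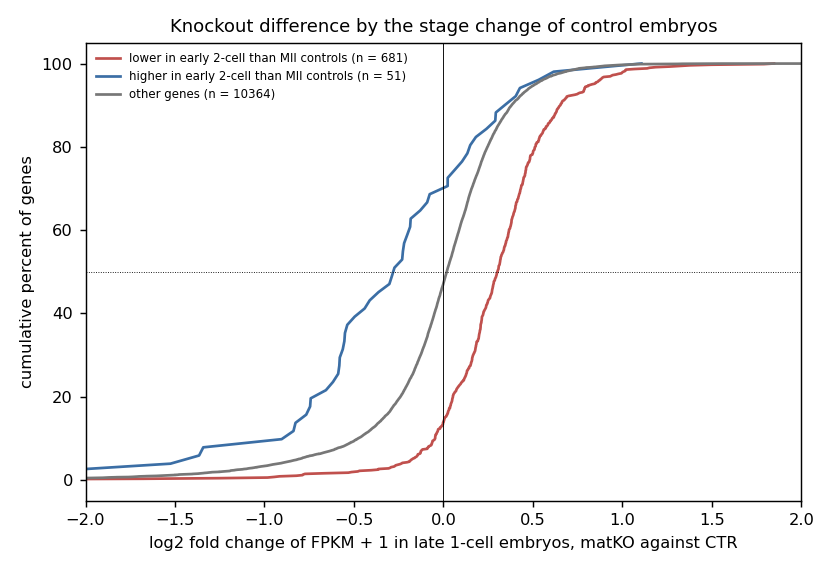
Cumulative percent of genes (vertical axis) by knockout difference at late 1-cell on the log2(FPKM + 1) scale (horizontal axis, shown from -2 to 2), for genes lower (681) or higher (51) in early 2-cell than in MII controls and the other 10364. The cleared class lies to the right, with a median of 0.30, against 0.02 for the other genes and -0.27 for the 51 genes raised.

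The class that controls raise by the early 2-cell stage was small at late 1-cell. Of its 51 tested genes 2 were higher (3.92%), Ppp1r8 and mt-Td, and 10 were lower (19.6%), with a median of -0.27. Over all genes 6.22% were higher and 8.71% lower. Among the lower ones were Hmgn5, a nucleosome-binding protein, by 2.25, and Fbxo15, an F-box protein, by 1.53, as well as Zfp809, Gm11543, Gm49064 and the mitochondrial mRNAs mt-Cytb, mt-Nd1, mt-Nd2 and mt-Nd4. Hmgn5 was at 13.2 and 11.4 FPKM in CTR and 1.33, 2.01 and 2.10 in matKO, and its difference in MII was -2.16. Without single libraries the median of the class was -0.35 to -0.19, and 6 of 49 genes were lower without matKO replicate 2. Classes set on the late 2-cell stage against MII, as planned, gave a weaker split. Of 1258 genes that controls had lowered by then 171 were higher (13.6%) and 100 lower (7.95%), with a median of 0.12. Of 449 raised 21 were higher (4.68%) and 33 lower (7.35%), with a median of 0.07. Both shares lower were near or under the 8.71% of all genes.

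Of the genes for the decay and the storage of maternal mRNA 14.8% and 21.7% were called, beside 14.9% of all genes. Of 27 tested decay genes 3 rose (11.1%) and 1 fell (3.70%), beside 6.22% higher and 8.71% lower over all genes. Pabpn1l, the egg poly(A)-binding protein that recruits the deadenylation machinery, was at 87.6 and 84.1 FPKM in CTR and 158, 147 and 142 in matKO (0.79, SE 0.07, adjusted p = 0.000835), and it passed without each one of the 5 libraries. Btg4, the adaptor that brings the CCR4-NOT deadenylase to maternal mRNA, was at 1251 and 1283 FPKM against 954, 1039 and 1010 (-0.34, adjusted p = 0.0168; 0.013 under quantile normalization). Zfp36l2, which binds AU-rich elements, rose by 0.67 and the decapping factor Dcp1a by 0.38. Of 23 tested storage genes 3 rose (13%) and 2 fell (8.70%). Lsm14b, a component of the stored mRNA particles, was at 286 and 299 FPKM against 438, 451 and 387 (0.54, adjusted p = 0.00582), Zar1, which binds stored mRNA, at 140 and 130 against 215, 179 and 174 (0.48), and Zar1l rose by 0.43. The RNA-binding proteins Msi2 and Igf2bp3 fell by 1.09 and 0.37. Zar1 shares 28.4% of its words with other genes, and Btg4, Zfp36l2, Lsm14b, Zar1, Msi2 and Igf2bp3 did not pass with either CTR library left out (adjusted p up to 0.222).

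Few genes of the egg's own structures passed the test. Of 14 oocyte and egg markers 2 rose, Gdf9 and Zar1, and 12 differences were above 0, with a median of 0.26. That list was called for 0 genes with either CTR library left out and for 1 without matKO replicate 2. Of 12 tested genes of the zona pellucida, the egg surface and oocyte secretion Gdf9 alone changed. Of 14 genes of the subcortical maternal complex, a multiprotein structure needed for early cleavage, Nlrp14 rose from 192 and 199 FPKM to 356, 282 and 279 (0.63, SE 0.11, adjusted p = 0.0109), and Zbed3 stood at 4399 and 4460 FPKM against 3835, 3386 and 3550 (-0.30, adjusted p = 0.0497; 0 under quantile normalization). The groups were apart in both genes, as in every gene called, and neither passed with either CTR library left out. Of 16 tested genes of egg activation Ccnb3, a cyclin of meiosis, fell by 0.47, and of 23 genes of pronucleus formation Nap1l4, a histone chaperone, rose by 0.25. None of the other members of these lists passed. The share called was 4.35% to 14.3% of these lists, beside 14.9% over all genes.

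Genes of the first cell cycle were called about as often as all genes, of which 6.22% were higher and 8.71% lower. Of 34 genes of mitosis and the spindle, Bub1b, the centrosomal protein Cep250 (by 0.92) and the checkpoint kinase Bub1 (by 0.38) rose, while Aurkb (by 0.60), the checkpoint protein Mad2l1 (by 0.45) and the condensin subunit Ncapg (by 0.24) fell. Of 44 genes of DNA replication, Pole, a polymerase subunit, and Orc5, of the origin recognition complex, rose by 0.69 and 0.32, and Gins3 and Pole2 fell by 0.67 and 0.55. These are 8.82% of the mitosis list and 4.55% of the replication list in each direction. The medians were 0.03 for both lists, as for all genes. Of the 26 genes of BRCA1 and homologous recombination Trp53bp1 and Rnf8 rose by 0.32 and 0.31, and of 10 tested p53 genes Tigar rose by 0.43 while Btg2, Trp53inp1 and Mdm4 fell by 0.54, 0.50 and 0.39. The higher genes are 7.69% of the first list and 10% of the second. The lower ones are 0% of the first and 30% of the second, beside 8.71% of all genes, so the p53 list was called lower more often.

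Chromatin writers and imprinted genes changed at a few members. Of 12 tested genes of DNA methylation 2 rose (16.7%, beside 6.22% of all genes), the de novo methyltransferases Dnmt3a, from 68.8 and 78.2 FPKM to 110, 104 and 102 (0.52, SE 0.08, adjusted p = 0.00615), and Dnmt3b by 0.43. Dnmt3a overlaps Dnmt3aos on the opposite strand, and its difference was 0.67 in FGO, -0.19 in MII and 0.96 in early 2-cell embryos. Of 21 tested histone methylases and demethylases the H3K27 demethylase Kdm6b rose by 0.31 and the H3K9 demethylase Kdm4a fell by 0.29. That is 4.76% in each direction, under the 6.22% higher and 8.71% lower over all genes. Noncanonical imprinted genes, silenced on the maternal allele by inherited H3K27me3, were mostly below the filter, with 2 of 37 tested. Bbx, 1 of those 2, was at 3.40 and 2.42 FPKM in CTR and 0.741, 0.731 and 0.862 in matKO (-1.13, SE 0.17, adjusted p = 0.00628). Of 19 tested canonical imprinted genes Herc3 and Mest rose by 0.45 and 0.30 and none fell. That is 10.5% called in either direction, beside 14.9% of all genes. Over all lists, 53 further genes named as the strongest calls of a list were examined without each library. Of the 50 that could be tested without a CTR library 7 kept the call without CTR replicate 1 and 7 without CTR replicate 2, and of the 53 the number was 42, 25 and 37 without matKO replicates 1, 2 and 3.

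Ribosomal protein mRNAs were higher in the knockout embryos in sum. Their summed FPKM was 2093 and 2032 in CTR and 2865, 2665 and 2594 in matKO, with no overlap. Of 83 listed 81 were tested, of which 32 rose (39.5%, beside 6.22% of all genes), 1 fell and 48 did not pass the test. Of the 81, 76 differences were above 0, with a median of 0.44 beside 0.03 over all genes. Rps26 was at 18.6 and 18.9 FPKM in CTR and 31.7, 29.8 and 31.7 in matKO (0.70, SE 0.07, adjusted p = 0.00173), and Rps24 at 157 and 171 against 207, 213 and 230 (0.40). The 1 that fell, Rps25, was at 19.98 and 19.75 FPKM against 14.1, 14.7 and 13.8 (-0.46, adjusted p = 0.0119) and overlaps Ccdc84 and Trappc4 on the opposite strand, with 32.3% of its words shared. Many ribosomal protein genes have near-identical processed copies, so the counting could split their reads. The count of increases was 4 without CTR replicate 1, 7 without CTR replicate 2 and 20 without matKO replicate 2, with medians of 0.46, 0.41 and 0.45.

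At the neighbouring stages few of these mRNAs were called higher. In MII their summed FPKM was 3136 and 3369 in CTR and 3037 to 3340 in matKO, with a median difference of -0.01 (1 higher, 2 lower), and in FGO the median was 0.03 (0 higher, 1 lower). In early 2-cell embryos matKO was the lower group, at 1282 to 1322 FPKM in CTR and 1080 to 1181 in matKO, with a median of -0.24 and 11 genes lower. In the test of the change of the effect from MII to late 1-cell, 76 of 81 estimates were above 0 and 48 had an unadjusted p under 0.05 in that direction, where 7.95% of all genes did, but no ribosomal protein gene passed after adjustment. The genes are short, and among protein-coding genes the shortest of 5 equal classes by exonic length had a median difference of 0.08 and the longest one of 0.01. From the shortest class on, the 4 classes with ribosomal protein genes held 55, 16, 5 and 2 of them. Their medians were 0.44, 0.50, 0.40 and 0.32. The part of length in the increase was not tested.

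**Figure D4:**
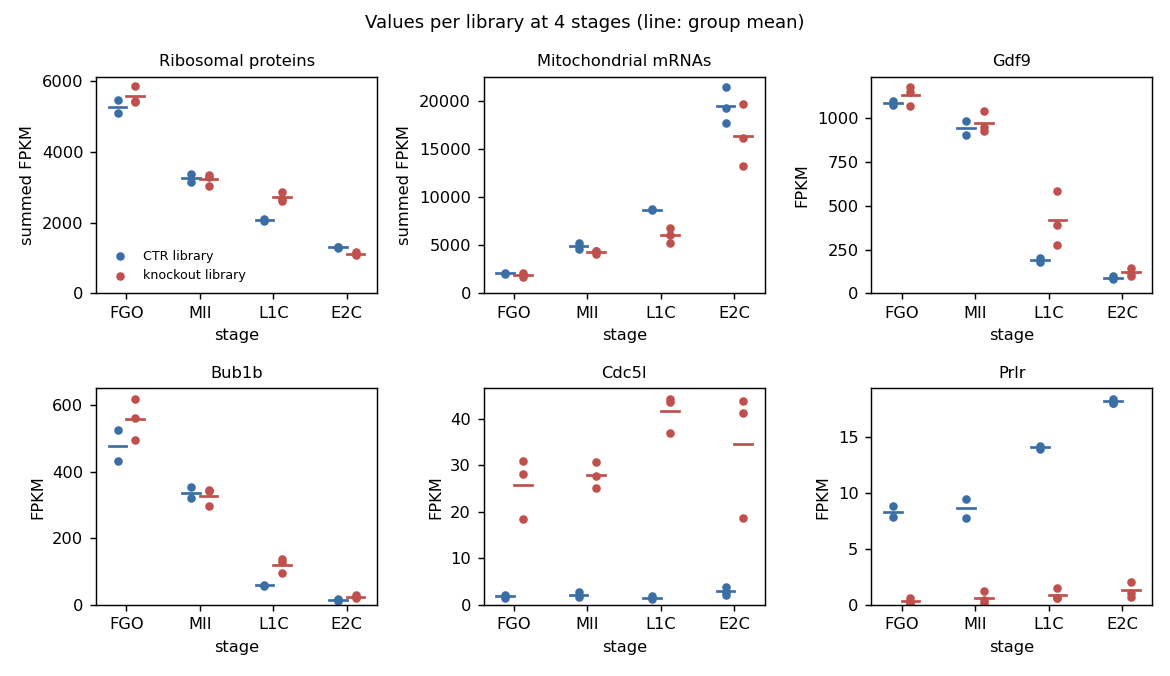
Level in every CTR and matKO library of FGO, MII, late 1-cell and early 2-cell for single genes and for 2 summed groups, in FPKM or summed FPKM on linear axes from 0, with a line at each group mean. Ribosomal protein mRNA is higher in matKO at late 1-cell (2594 to 2865 against 2032 to 2093) and lower at early 2-cell, Gdf9 separates after MII, and Prlr and Cdc5l are apart at every stage.

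The differences of proteasome and histone genes were mostly above 0 and those of mitochondrial mRNAs mostly below it, with 6.22% higher and 8.71% lower over all genes. Of 41 tested proteasome genes 8 rose (19.5%), among them the core subunit Psmb4 by 0.69 and the assembly chaperone Psmg3 by 0.56, and Psmd10 fell by 0.40, with a median of 0.22. None of the 8 passed with either CTR library left out and 1 did without matKO replicate 2. Of 39 tested replication-dependent histone genes 4 rose (10.3%), H4c6, H4c2, H4c4 and H2bc18, and 33 differences were above 0, with a median of 0.26. H4c6 was at 1.95 and 2.50 FPKM in CTR and 6.53, 5.47 and 6.51 in matKO (1.15, SE 0.15, adjusted p = 0.00334). The H4 genes share 10.2% to 75.9% of their 50-base words with one another and other genes, so the copy that rose is uncertain. Without CTR replicate 1 or 2 the count was 1 and 2, and without matKO replicate 1 it was 8. Of the 13 mRNAs of the mitochondrial genome 5 fell (38.5%), with a median of -0.32. Their median was 0.08 in FGO, -0.43 in MII and -0.23 in early 2-cell embryos, with 1, 0 and 1 called lower. At late 1-cell their sum was 8697 and 8714 FPKM in CTR and 5254, 6059 and 6763 in matKO. The largest decrease was that of mt-Cytb, at 2676 and 2768 FPKM against 1363, 1576 and 2006 (-0.74, SE 0.15, adjusted p = 0.0190), followed by mt-Nd2 (-0.62). Without CTR replicate 1 none of the 13 passed as lower, 1 did without CTR replicate 2, and 3 did without matKO replicate 2.

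**Figure D5:**
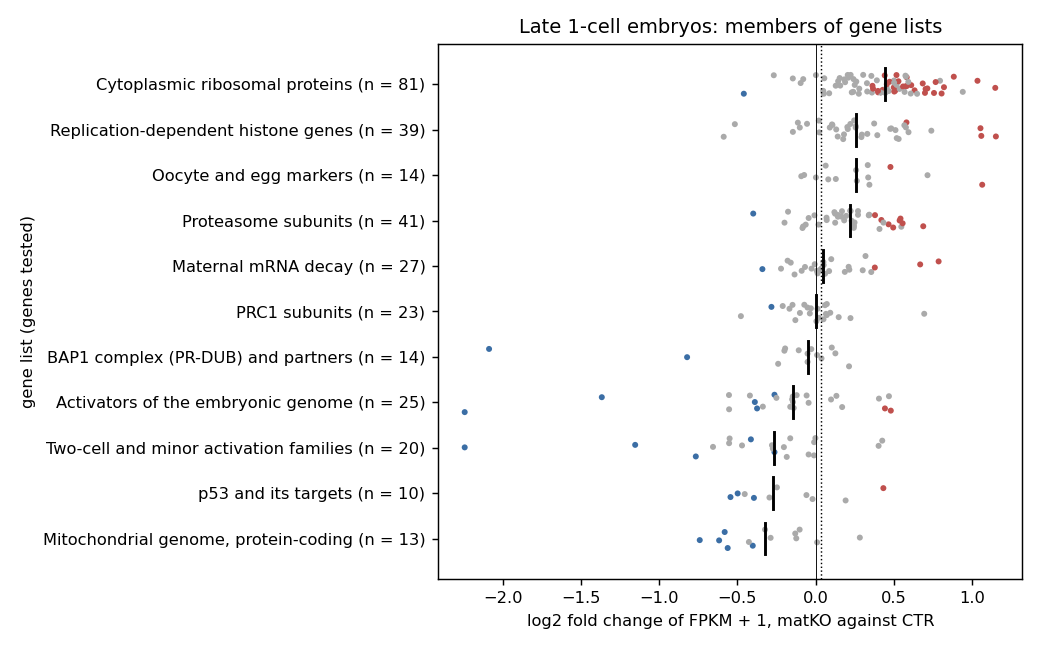
Knockout difference at late 1-cell on the log2(FPKM + 1) scale for every tested member of selected gene lists, 1 point per gene, with the list's median as a bar and genes that passed the test in colour. Ribosomal protein genes lie almost wholly above 0 (76 of 81) and mitochondrial mRNAs mostly below it (11 of 13).

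Few single genes differed in their knockout effect from the unfertilized egg when that difference itself was tested. Of 11817 genes tested over MII and late 1-cell, 5 had a higher effect at late 1-cell (0.0423%) and 1 a lower one (0.00846%) by limma at an adjusted p under 0.05, while at an unadjusted p under 0.05 there were 939 higher (7.95%) and 544 lower (4.6%). H4c6 differed by 1.57 (SE 0.17, adjusted p = 0.0261), with a difference of 1.15 in late 1-cell embryos and -0.41 in MII. Its CTR level was 7.43 and 7.48 FPKM in MII and 1.95 and 2.50 at late 1-cell. Its matKO level moved less, from 5.04, 5.78 and 5.26 FPKM in MII to 6.53, 5.47 and 6.51. Sap18, a subunit of the SIN3 histone deacetylase complex, was at 39.4 and 39.4 FPKM in CTR and 70.7, 71.6 and 80.4 in matKO at late 1-cell (0.89) and at -0.37 in MII. Atp5k, a subunit of the ATP synthase, and Hspa8, the constitutive heat shock protein HSC70, differed by 1.01 and 0.82, and Stbd1, a glycogen-binding protein outside the naming rule, by 0.67. Gm7240 differed by -0.93. Leaving out single libraries moved the counts between 0 and 36 higher and between 0 and 5 lower: without CTR replicate 2 none was higher, without CTR replicate 1 and without matKO replicate 2 there was 1, and without matKO replicate 3 there were 36 higher and 5 lower.

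The change of the effect from late 1-cell to early 2-cell embryos was tested in the same way. Of 12770 genes 16 had a higher effect at the later stage (0.125%) and 27 a lower one (0.211%). The Dux locus on chromosome 10 led the first set. Duxf3, the mouse Dux gene, whose product activates 2-cell genes, was at 2.78 and 4.27 FPKM in CTR and 1.39, 2.52 and 2.33 in matKO at late 1-cell, a difference of -0.55 that did not pass (adjusted p = 0.144). In early 2-cell embryos it was at 3.31 to 5.75 FPKM in CTR and 19.2 to 27.5 in matKO, a change of the effect of 2.60 (adjusted p = 0.00975). Its neighbours AW822073 and Gm10807 had changes of 2.70 and 2.22. The 3 genes share 47.1% to 86.4% of their words with other genes, so which copy the reads came from is uncertain. Pramel7 and Gm5435, below the filter or low at late 1-cell, reached 5.41 to 6.37 and 21.5 to 26.9 FPKM in early 2-cell controls and 0.108 to 0.389 and 2.55 to 4.53 in matKO. Rps26 went from a difference of 0.70 at late 1-cell to -1.18 at early 2-cell, a change of -1.88, and the translation initiation factor Eif5b from 0.26 to -1.10, a change of -1.36. Of the 27 genes with a lower effect at the later stage 6 encode ribosomal proteins, namely Rpsa, Rps26, Rpl23, Rplp0, Rpl26 and Rplp2, all but Rps26 named after the result was seen. Ribosomal protein genes were 81 of the 11096 genes tested at late 1-cell alone. Their share of the 12770 is not given here, and the count of 6 was not tested. Without single libraries the counts were 1 to 7 higher and 6 to 15 lower. The counts for the changes from MII and to early 2-cell come from fits with different numbers of libraries, and no test compared them.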

How the data were processed

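The 5 late 1-cell libraries were read from the deposited table of 26 total RNA libraries, in which the authors give FPKM for 55401 genes. Per the submitters' processing notes, which give no roles or order, Trim Galore 0.6.6, STAR 2.7.9 and StringTie 2.1.7 were used with mm10; whether the counting used the strand is not given in the sources used here. Symbols and positions came from GENCODE M21 (GRCm38), which holds 54349 of the identifiers in the same version and 55141 in any version, and promoters from RefSeq on GRCm38.p6. Low values multiplied by gene length fell on no whole steps (the fullest bin held 0.826% to 1.34% of them), so the depth is unknown, no counting error is given, and the number of libraries limits the precision. With 10 arrangements of 2 against 3 libraries an exact permutation test on the absolute difference cannot go below p = 0.1 and was not used.

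Values were analysed as log2(FPKM + 1), which understates changes of low genes, for genes that reached 1 FPKM in 2 or more of the libraries fitted. The stage was fitted alone with limma 3.58.1 under R 4.3.3, with an intensity trend in eBayes, and p-values were adjusted by Benjamini-Hochberg over all genes tested, at 0.05. The other stages were fitted the same way, and changes of the effect between stages as interaction contrasts over the libraries of both stages. Fold differences given as ratios are of mean FPKM. Tests were tried on simulated data with normal noise, in which the changed genes were drawn from the more abundant genes only. The noise had the variance that limma had estimated for each gene, so the data follow the fitted model. The recovery therefore cannot show how far 2 control libraries can be relied on. For the late 1-cell comparison all of 200 changed genes among 10704 were recovered (100% at 1 and 100% at 2 log2 units), with 18 false calls. For the change from MII, over 11308 genes, recovery was 89% and 100%, with 12 false calls. Recovery of low genes was not tried. Python 3.11.15, pandas 2.3.3, numpy 2.4.6 and matplotlib 3.10.9 made the tables and plots.

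The genes named were Bap1 and, among those that passed the test, the 14 largest increases and the 14 largest decreases, with groups apart and the higher group averaging 5 FPKM or more, predicted and clone-named genes not considered; up to 2 genes per direction of each list, and up to 4 per direction of each interaction test. The comparison, the members and the lists were chosen with earlier results of these data known. Shared sequence is the percent of a gene's exonic words of 50 bases found in another annotated gene. The alternatives tried were a pseudocount of 0.1, no filter, a filter at 5 FPKM on the mean, TPM scaling, median centring, quantile normalization, all 26 libraries in 1 fit, eBayes without trend, the replicate number as a block, other stage classes and leaving out each library.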

Additional observations from a re-analysis of the deposited data

Results flagged for a closer look

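The results here are genes whose knockout effect differed between neighbouring stages by the interaction test of limma at an adjusted p under 0.05, each tested in libraries of both stages. From MII to late 1-cell the effect was higher by 1.57 log2 units for H4c6, by 1.27 for Sap18 (adjusted p = 0.0261 for both), by 1.01 for Atp5k (adjusted p = 0.0499) and by 0.82 for Hspa8 (adjusted p = 0.0429). For Gm7240, a predicted gene at 8.35 and 8.58 FPKM in CTR and 4.29, 4.60 and 4.54 in matKO at late 1-cell, it changed by -0.93 (adjusted p = 0.0499). In Hspa8, Sap18, Atp5k and H4c6 every matKO library was above both CTR libraries at late 1-cell and below both in MII. The test picked these genes from the same libraries, so that trait adds nothing to it. In MII alone the difference of H4c6 passed (limma adjusted p = 0.0424). Those of Hspa8, Sap18 and Atp5k did not (adjusted p = 0.218, 0.0799 and 0.0804). H4c6, Sap18, Hspa8 and Gm7240 share 39.5%, 15.3%, 39.4% and 19.4% of their words with other genes.

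From late 1-cell to early 2-cell embryos the effect rose by 2.70 for AW822073, 2.60 for Duxf3 and 2.22 for Gm10807, all within the Dux locus, and by 1.01 for D6Ertd527e (adjusted p = 0.00983). D6Ertd527e was at 641 and 643 FPKM in CTR and 626, 596 and 588 in matKO at late 1-cell, and at 232 to 272 and 432 to 517 at early 2-cell. The effect changed by -1.88 for Rps26, -2.51 for Pramel7, a gene of the preimplantation PRAME family, -1.36 for Eif5b, -2.62 for Gm5435, -2.00 for Gpx1 and -1.04 for Hspa8. Gpx1 and Hspa8 had risen at late 1-cell, by 1.40 and 0.65, and at early 2-cell their differences were -0.60 and -0.38, which did not pass at that stage alone. Pramel7 was at 0.0638 FPKM or less in every late 1-cell library, so its change rests on the early 2-cell libraries.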

How the results depend on the processing

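The depth of the libraries is unknown, and the 2 control libraries limit the precision most. Without single libraries the genes higher numbered 61 to 663 and those lower 177 to 909, and where 1 control is left it is assumed to vary like the matKO group. Without a filter 165 were higher and 597 lower, with a mean of at least 5 FPKM 552 were higher and 450 lower, so that more were higher, in the fit of all 26 libraries 339 were higher, and without the trend 438 were higher. The replicate number as a block gave 1098 higher and 1095 lower. Deviations of same-numbered libraries correlated at 0.08 and 0.05, and those of different-numbered ones at -0.08 to 0.04. The deviations of 2 CTR libraries mirror each other, so these values cannot decide whether a number pairs samples. The labels do not say that it does. For the change from MII, a pseudocount of 0.1 gave 12 higher and 2 lower, a mean of at least 5 FPKM 9 and 2, and the fit of all 26 libraries 0 and 0, and without single libraries the ranges were 0 to 36 and 0 to 5. For the change to early 2-cell, median centring gave 36 higher, the fit of all 26 libraries 317 higher and 393 lower, and without single libraries the ranges were 1 to 7 and 6 to 15. The median of the genes lowered by late 2-cell was 0.18 at a change of at least 3 log2 units, 0.17 with TPM scaling and 0.30 when set on early 2-cell, with or without ribosomal protein genes (chosen after seeing the data). That of the genes raised was 0.039 to 0.073 without single libraries and -0.27 when set on early 2-cell, with or without ribosomal protein genes. Under quantile normalization the differences of Btg4 and D6Ertd527e changed sign, to 0.013 and 0.0095, and that of Zbed3 was 0. The cause of these shifts was not tested, except that fewer genes or libraries were tested where the setting removes them. Of the values of named genes under all alternatives, 915 kept direction and side of the threshold, 298 lost the call without changing sign, 4 gained it and 2 changed sign.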

Other observations

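Zinc finger genes, grouped after the data had been seen by the name Zfp and a number, were frequent among the decreases. Of 210 tested 55 were lower in matKO (26.2%) and 2 higher, with a median difference of -0.25, where 8.71% of all genes were lower and the median was 0.03. Their medians were -0.23 in FGO and -0.13 in MII. Zfp820 fell from a mean of 6.06 ± 0.209 FPKM (SD, n = 2) to 0.459 ± 0.127 (SD, n = 3), and Zfp978 from 25.97 ± 0.734 to 6.20 ± 0.547. Some zinc finger proteins repress transposable elements or neighbouring genes through the corepressor KAP1, and the name alone does not tell which of these genes encode such proteins. The list was picked for how it moved, so no test was made of it.

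By chromosome, the share of genes lower was highest on X, at 60 of 362 tested (16.6%), followed by chromosome 1 at 12.9%. The median difference on X was -0.06. These are values without a test.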
